A study of Mus musculus with 5 samples.

Results

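The genes described here are 35 mouse genes of the antioxidant defence, covering the Nrf2 sensor, glutathione synthesis and use, the thioredoxin and peroxiredoxin enzymes, the superoxide dismutases and catalase. They were found on the array by the gene symbol of the probe annotation, keeping probe sets with exactly 1 symbol. That gave 67 probe sets for 31 of the 35 genes, out of 34945 probe sets and 18193 genes in all. No probe set with 1 symbol was found for Prdx1, Prdx5, Prdx6 or Ucp2, which are not analysed here. Total retinal RNA was measured on 5 Affymetrix arrays, each holding 1 pool. Diabetic replicates 1 and 2 each pooled 4 retinas of 2 mice given streptozotocin, which destroys pancreatic beta cells, and taken at 5 weeks of diabetes. Diabetic replicate 3 pooled 6 retinas of 3 mice with experimentally induced diabetes of 3 to 4 weeks, for which the label names no agent. Both control replicates pooled 4 retinas of 2 untreated, age-matched mice whose blood glucose was normal. The labels give no strain, sex or age in weeks, and the spread between arrays is the spread between pools, not between mice.

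Reactive oxygen species are removed in steps. Superoxide dismutases turn superoxide into hydrogen peroxide, and catalase, the glutathione peroxidases and the peroxiredoxins reduce the peroxide. Glutathione and thioredoxin are the thiol carriers that restore the peroxidases and peroxiredoxins, and they are themselves reduced with NADPH. The transcription factor Nrf2, encoded by Nfe2l2, is held down by Keap1 and, when released, raises many of these genes through antioxidant response elements in their promoters and enhancers. The retina has a high oxygen use and photoreceptor membranes rich in unsaturated lipid, and oxidative stress is a much studied part of diabetic retinopathy.

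The arrays carried retinal RNA by their markers, with rod, cone, Muller glia, ganglion cell and amacrine markers well measured in every pool. The summed signal of 5 rod markers ran from 471228 to 532617 in diabetic and from 458693 to 527522 in control pools. Other tissues differed between pools. The summed signal of 7 pigment epithelium markers ran from 48454 to 74746 in diabetic and from 93583 to 139991 in control pools, without overlap. The summed signal of the 5 microglia markers ran from 4397 to 5600 and from 6304 to 7400, also without overlap. Taken singly, Aif1 and C1qa were lower in every diabetic pool, while the groups of Csf1r, Cx3cr1 and P2ry12 overlapped. Melanocyte markers were high in diabetic replicates 1 and 3 and control replicate 2, and skeletal muscle markers in diabetic replicate 3 and control replicate 2. Diabetic replicate 2 had a ratio of 3' to 5' beta-actin signal of 4.32, against 2.01 to 2.71 in the other arrays. Its ratio for Gapdh was 0.90, against 0.78 to 0.84 in the other arrays. In bulk RNA, fewer cells of a type and less RNA per cell cannot be told apart.

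Most of the antioxidant genes had nearly the same level in diabetic and control retina. Levels are given as log2(signal + 120.6), so that a difference of 1 is a doubling for a bright gene and understates the change of a dim one. The upper 60% of genes by mean level were tested, 10916 in all, and these included 26 of the 31 measured genes. Nqo1, Glrx3, Hmox1, Sod3 and Slc7a11 lay below that filter. Of the 26 tested genes 17 were higher and 9 lower in diabetic pools, with differences from -0.26 (Gss) to 0.41 (Gpx3). Their median difference was 0.04, against 0.00602 over all tested genes. Of all tested genes, 51.9% were higher. With each array centred on its median signal, 20 of the 26 were higher against 65.8% of all tested genes. The groups did not overlap in 4 of the 26, Gss and Gclc below the controls and Gstm1 and Gstm5 above them, a share of 15.4% where all tested genes gave 18.1% (9.99% above and 8.15% below). None of the 26 passed an adjusted p of 0.05, as did 0% of all tested genes (limma, Benjamini-Hochberg, adjusted p of 0.999 for each of the 26). At an unadjusted p under 0.05 there were 0 of the 26, beside 3.39% of all tested genes. The precision varied with the gene. The 95% interval lay within 1 log2 unit on either side of 0 for 25 of the 26 genes, Gpx3 being the exception, beside 98.2% of all tested genes. It lay within 0.5 log2 units for 20 of the 26, beside 73.7%. With single arrays left out, 14 of the 26 changed sign at least once.

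**Figure D1:**
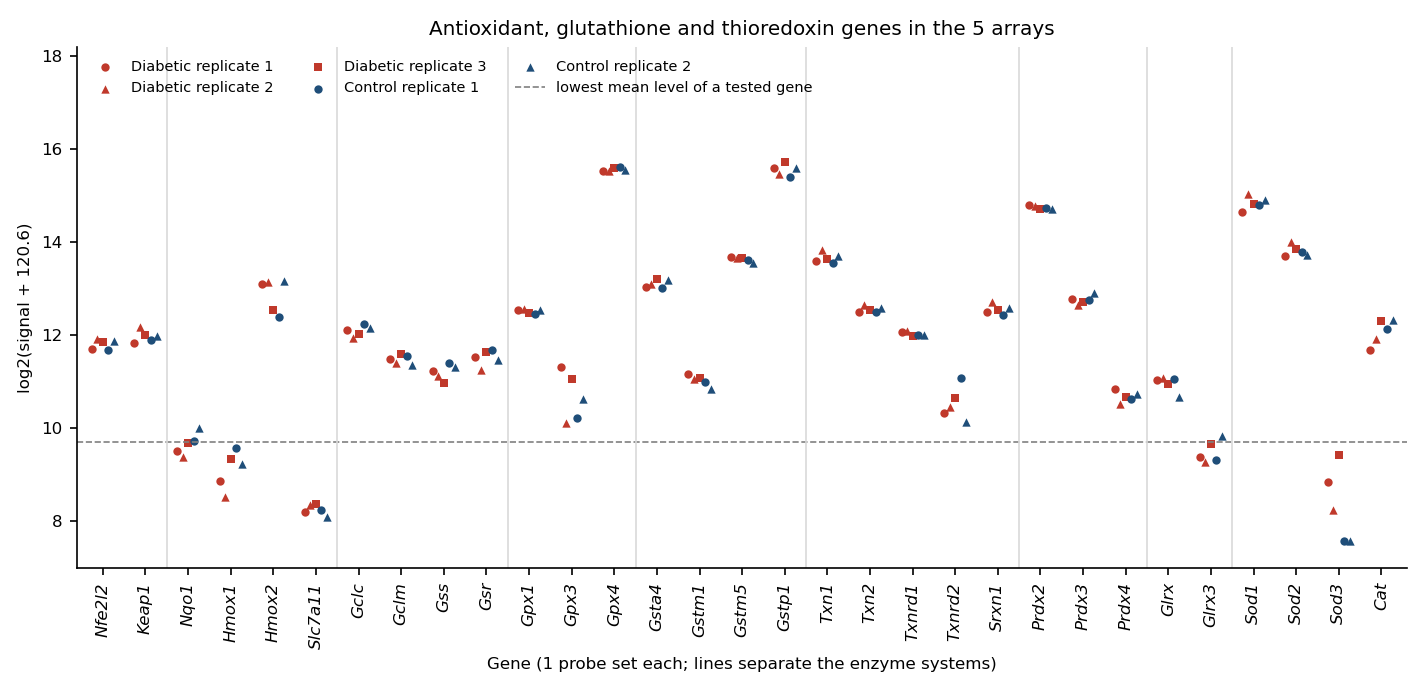
Level of each of the 31 measured genes in the 5 arrays, on the vertical axis as log2(signal + 120.6), with diabetic pools in red, control pools in blue and a symbol per replicate. The points of most genes lie on top of each other, while Sod3, Gpx3, Hmox1 and Txnrd2 spread by 0.94 to 1.84; heights of different genes come from different probes and cannot be ranked.

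**Figure D2:**
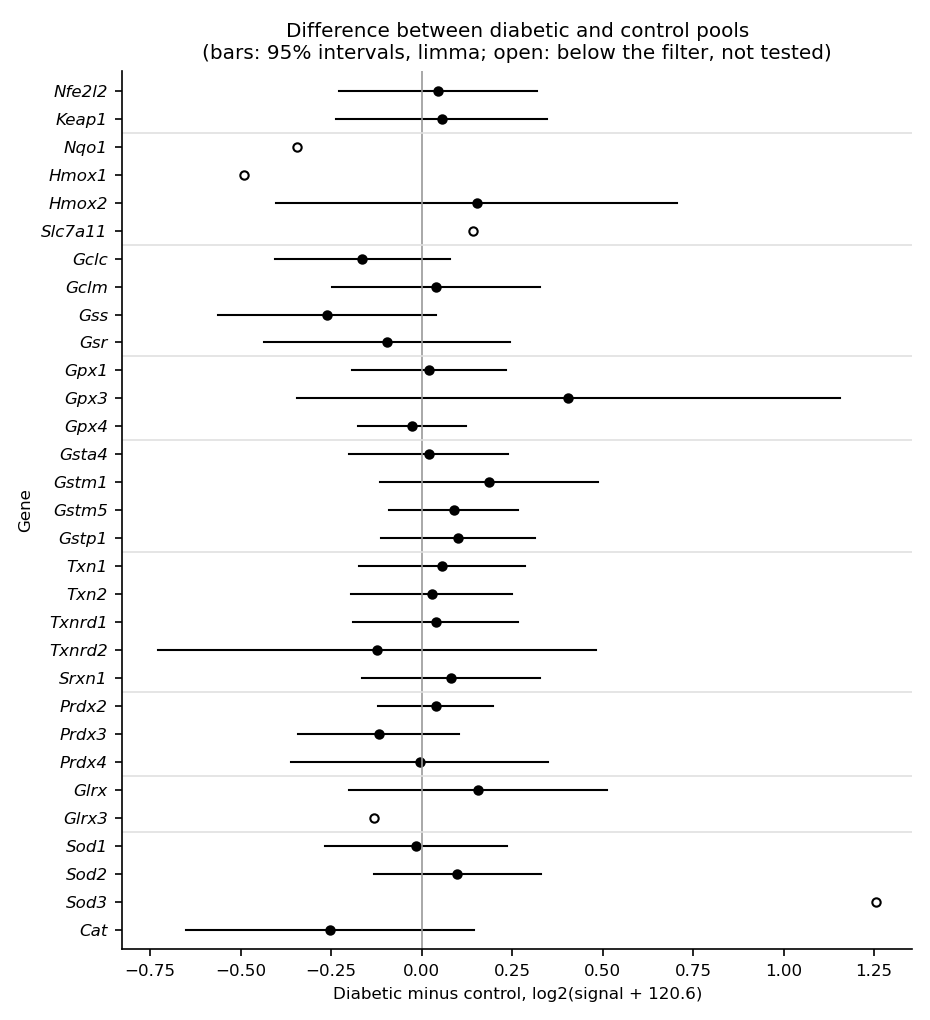
Difference between diabetic and control pools for each gene, on the horizontal axis in log2 units, with 95% intervals from limma for the 26 tested genes and open circles for the 5 genes below the filter. All 26 intervals include 0, and Gpx3 has the widest interval, from -0.34 to 1.16.

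The sensor of the pathway did not differ detectably. Nfe2l2, which encodes Nrf2, had levels of 11.71, 11.91 and 11.86 in the diabetic pools and 11.69 and 11.87 in the controls, here and later in the order of the replicates. The groups overlapped, with a difference of 0.05 (SE 0.12, 95% interval -0.23 to 0.32). Keap1, the adaptor that marks Nrf2 for degradation, was at 11.82, 12.18 and 11.998 in diabetic and 11.90 and 11.98 in control pools. Its difference was 0.06 (SE 0.13, 95% interval -0.24 to 0.35). Nrf2 is known to be controlled largely at the protein level, which arrays do not measure.

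The core of the antioxidant response element, TGACNNNGC, was searched on both strands in the promoter windows of RefSeq (GRCm38.p6), which run from 250 bases before to 50 after a gene's start. Windows were found for 29 of the 35 genes, and 8 of these, or 27.6%, held the core, beside 14% of the 27025 genes with a window and 12.4% of the 32851 windows. A match is a description of letters and not evidence of binding. The matches of the 6 tested genes are shown because the core is the sequence through which Nrf2 acts on its targets, with the core in capitals and 10 bases on each side:
Nfe2l2: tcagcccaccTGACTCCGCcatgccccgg
Srxn1: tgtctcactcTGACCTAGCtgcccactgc
Gstm5: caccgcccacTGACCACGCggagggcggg
Gclm: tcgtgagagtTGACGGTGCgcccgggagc
Txnrd1: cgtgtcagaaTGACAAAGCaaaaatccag
Sod1: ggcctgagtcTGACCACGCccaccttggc
The stretches lie at chr2:75704885-75704913 (minus strand) for Nfe2l2, chr2:152105542-152105570 (minus) for Srxn1, chr3:107895802-107895830 (plus) for Gstm5, chr3:122245413-122245441 (minus) for Gclm, chr10:82859104-82859132 (minus) for Txnrd1 and chr16:90220696-90220724 (minus) for Sod1. The core of Gstm5 lay 34 bases before the start of transcription, that of Sod1 48, that of Txnrd1 84, that of Gclm 126 and that of Nfe2l2 232 bases before it, while that of Srxn1 lay after the start. The core can overlap the AP-1 site TGACTCA, and none of these 6 did. The 6 genes differed by -0.02 to 0.09 between diabetic and control pools, and the 17 tested genes with a window but no core by -0.26 to 0.41. The medians were 0.04 in both sets.

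Nqo1 and Hmox1, both classical Nrf2 targets, were dim. Nqo1, the quinone reductase most often used to read out Nrf2, was at 9.51, 9.37 and 9.69 in diabetic and 9.72 and 10.01 in control pools. All 3 diabetic values lay below both controls, with means of 9.52 ± 0.16 (SD, n = 3) and 9.87 ± 0.20 (SD, n = 2), a difference of -0.34 (-0.49 to -0.20 with single arrays left out). Diabetic replicate 3 and control replicate 1 were only just apart. The gene lay 0.04 below the filter, and when every probe set was tested on its own (the upper 60% of probe sets) it did not pass (limma, adjusted p = 0.9999). Hmox1, the stress-induced heme oxygenase, was at 8.86, 8.51 and 9.33 in diabetic and 9.56 and 9.22 in control pools. Its difference was -0.49 (-0.71 to -0.30 with single arrays left out), and diabetic replicate 3 lay between the controls. With all 18193 genes tested, neither gene passed (limma, unadjusted p of 0.186 for Nqo1 and 0.166 for Hmox1), and all such genes gave 3.82% at an unadjusted p under 0.05. Both pigment epithelium and microglia marker sums were also lower in the diabetic pools, as given above, and their part in the values of Nqo1 and Hmox1 was not tested.

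Hmox2, the constitutive heme oxygenase, split the arrays across the groups. It was at 13.10 and 13.14 in diabetic replicates 1 and 2 and at 13.17 in control replicate 2, but at 12.55 in diabetic replicate 3 and 12.38 in control replicate 1. The difference of 0.15 (SE 0.24) became -0.24 with control replicate 1 left out and 0.55 with control replicate 2 left out. Slc7a11, the cystine transporter that feeds glutathione synthesis, was dim, between 8.21 and 8.36 in diabetic and at 8.23 and 8.09 in control pools.

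Among the enzymes that make and restore glutathione, Gss, glutathione synthetase, had the smallest p of the 26 tested genes. It was at 11.22, 11.11 and 10.96 in diabetic and 11.40 and 11.32 in control pools. Every diabetic value lay below both controls, and the difference was -0.26 (SE 0.13, 95% interval -0.56 to 0.04; limma, unadjusted p = 0.0796 and adjusted p = 0.999). Gclc, the catalytic subunit of the rate-limiting glutamate-cysteine ligase, was at 12.12, 11.94 and 12.03 in diabetic and 12.23 and 12.15 in control pools. The diabetic values were again below both controls, by -0.16 in the mean (SE 0.11, 95% interval -0.41 to 0.08). Both genes rest on 1 of their 2 probe sets. The other probe set of Gss differed by 0.06 and that of Gclc by 0.09, with groups that overlapped. Gclm, the modifier subunit of the same ligase, differed by 0.04 (95% interval -0.25 to 0.33). Gsr, which reduces oxidised glutathione, was at 11.53, 11.25 and 11.65 in diabetic and 11.68 and 11.46 in control pools, and differed by -0.10 (95% interval -0.44 to 0.24).

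By the probe sets that stand for the genes, the glutathione peroxidases held some of the steadiest of the tested genes and the most variable one. Gpx1, the main cytosolic peroxidase, was at 12.54, 12.56 and 12.48 in diabetic and 12.46 and 12.55 in control pools, a range of 0.09 over the 5 arrays. Gpx4, which reduces lipid peroxides in membranes, had the same range of 0.09, at 15.54, 15.54 and 15.61 in diabetic and 15.62 and 15.55 in control pools. The second tested probe set of Gpx4, at a mean level of 15.20, ranged over 0.31. The 95% intervals of the difference were -0.19 to 0.23 for Gpx1 and -0.18 to 0.12 for Gpx4. The median range of all tested genes was 0.32.

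Gpx3, the secreted glutathione peroxidase of plasma, had the widest range of the 26, 1.21. It was at 11.31, 10.10 and 11.06 in diabetic and 10.22 and 10.62 in control pools. Diabetic replicate 2 was the lowest array and diabetic replicates 1 and 3 the highest, so the groups overlapped, with a difference of 0.41 (SE 0.33, 95% interval -0.34 to 1.16). The difference was 0.77 with diabetic replicate 2 left out and 0.16 with diabetic replicate 1 left out. The 3 arrays of highest Gpx3 were also those of highest melanocyte signal. The summed signal of the 6 melanocyte markers was 22570, 2901 and 14358 in diabetic replicates 1 to 3 and 5166 and 19128 in control replicates 1 and 2. Krt12, a keratin of the corneal epithelium, was at 10.28, 8.52 and 9.94 in diabetic and 8.60 and 8.25 in control pools, also highest in diabetic replicates 1 and 3. The other corneal markers did not share that order, with Krt5 at 9.46, 9.004 and 9.74 against 9.33 and 9.31, and Perp at 9.81, 9.52 and 9.65 against 10.01 and 10.47, below both controls in each diabetic pool. The summed signal of the 3 was 1251 to 2488 in diabetic and 1706 to 1994 in control pools. The part of either tissue in the Gpx3 values was not tested.

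The glutathione transferases, which attach glutathione to electrophiles, had small positive differences in all 4 tested genes. Gstm5 was at 13.69, 13.67 and 13.66 in diabetic and 13.62 and 13.54 in control pools, without overlap. The difference was 0.09 (SE 0.08, 95% interval -0.09 to 0.27). Gstm1 was at 11.17, 11.06 and 11.07 in diabetic and 11.00 and 10.83 in control pools, again without overlap, with a difference of 0.19 (SE 0.13, 95% interval -0.11 to 0.49). Its second tested probe set differed by 0.02 and its groups overlapped. The probe set that stands for Gstm1 has the suffix for possible matches to several transcripts, and mu-class transferases are near-identical in sequence, so signal from other members of the class cannot be told apart. Gstp1, the abundant pi-class transferase, differed by 0.10 (95% interval -0.11 to 0.31) and Gsta4, which clears the lipid aldehyde hydroxynonenal, by 0.02 (95% interval -0.20 to 0.24). These 4 signs held with each array left out, other than for Gsta4, which was at -0.06 without control replicate 1 and at -0.024 without diabetic replicate 3.

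In the thioredoxin system the brightest probe sets of the cytosolic enzymes were steady and that of the mitochondrial reductase was not. Txn1, cytosolic thioredoxin, was at 13.59, 13.84 and 13.64 in diabetic and 13.56 and 13.71 in control pools, and differed by 0.06 (95% interval -0.17 to 0.29). Txnrd1, its reductase, ranged over only 0.09, at 12.06, 12.08 and 11.99 in diabetic and 12.01 and 12.004 in control pools, and differed by 0.04 (95% interval -0.19 to 0.27). As the mean of its 3 probe sets it was at -0.29, since the other 2, both dim, were lower in diabetic pools. Txn2, the mitochondrial thioredoxin, differed by 0.03 (95% interval -0.20 to 0.25).

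Txnrd2, the mitochondrial thioredoxin reductase, was at 10.32, 10.46 and 10.65 in diabetic and at 11.07 and 10.13 in control pools. The controls lay on either side of all 3 diabetic pools, and the difference of -0.12 (SE 0.26) moved to -0.60 with control replicate 2 left out and to 0.35 with control replicate 1 left out. Srxn1, sulfiredoxin, which repairs overoxidised peroxiredoxins and is a well known Nrf2 target, was at 12.50, 12.72 and 12.55 in diabetic and 12.43 and 12.58 in control pools. It differed by 0.08 (SE 0.11, 95% interval -0.17 to 0.33). All 4 of its probe sets were higher in diabetic pools, by 0.03 to 0.30, with groups that overlapped in each.

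Of the peroxiredoxins, the thiol peroxidases that thioredoxin reduces, 3 were measured. Prdx2, a cytosolic form, had the smallest range of the 26 genes, 0.08, at 14.79, 14.79 and 14.71 in diabetic and 14.74 and 14.71 in control pools. Its difference was 0.04 (95% interval -0.12 to 0.20). The second tested probe set of Prdx2, dimmer at a mean level of 9.84, ranged over 0.46. Red blood cells are rich in Prdx2. Of 5 listed erythrocyte markers 3 were measured (Alas2, Hba-a1 and Slc4a1), and all 3 lay below the filter. The part of blood in the Prdx2 values was not tested. Prdx3, the mitochondrial form, was at 12.77, 12.64 and 12.72 in diabetic and 12.75 and 12.91 in control pools, a difference of -0.12 (95% interval -0.34 to 0.10). Prdx4, the form of the endoplasmic reticulum, differed by -0.00563 (95% interval -0.36 to 0.35). A dimmer tested probe set of Prdx4 differed by -0.28, at 9.14, 9.81 and 9.81 in diabetic and 9.83 and 9.91 in control pools, without overlap. Another differed by -0.01 with overlap. The groups of 17.2% of all tested probe sets did not overlap. Of the glutaredoxins, which reduce proteins bound to glutathione, Glrx was at 11.03, 11.09 and 10.95 in diabetic and 11.06 and 10.67 in control pools. The difference of 0.15 (SE 0.16) was -0.04 without control replicate 2. Glrx3, below the filter, was between 9.27 and 9.65 in diabetic and at 9.31 and 9.83 in control pools.

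The intracellular superoxide dismutases did not differ detectably. Sod1, the cytosolic copper and zinc enzyme, was at 14.65, 15.03 and 14.81 in diabetic and 14.79 and 14.91 in control pools. Both controls lay inside the diabetic range, and the difference was -0.02 (SE 0.11, 95% interval -0.27 to 0.23). Sod2, the manganese enzyme of mitochondria, was at 13.70, 14.01 and 13.85 in diabetic and 13.78 and 13.73 in control pools, a difference of 0.10 (SE 0.10, 95% interval -0.13 to 0.33). Cat, the peroxisomal catalase, was at 11.68, 11.93 and 12.30 in diabetic and 12.13 and 12.32 in control pools. Diabetic replicates 1 and 2 were below both controls and diabetic replicate 3 was not, and the difference was -0.25 (SE 0.17, 95% interval -0.65 to 0.14). The second probe set of Cat differed by -0.10.

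Sod3, the superoxide dismutase secreted into the extracellular matrix, had the largest difference of the 31 measured genes, at a dim probe set. Its signals were 337.3, 183.5 and 563.5 in the diabetic pools, against 70.66 and 70.64 in the controls. On the log2 scale these were 8.84, 8.25 and 9.42 against 7.58 in both controls, with each diabetic pool above both. The difference was 1.26, between 0.96 and 1.55 with single arrays left out, but it depended on the pseudocount and the probe set, at 2.19 with a pseudocount of 1, 0.45 with one of 690.0 and 0.58 as the mean of both its probe sets. Sod3 lay below the filter. With all 18193 genes tested, its 95% interval was 0.38 to 2.13 and it did not pass (limma, unadjusted p = 0.0112 and adjusted p = 0.9997), where 3.82% of those genes had an unadjusted p under 0.05 and the groups of 18.5% did not overlap. The second Sod3 probe set was at 7.21, 7.47 and 7.69 in diabetic and 7.50 and 7.61 in control pools, with overlap and a difference of -0.10. Sod3, like Gpx3, was highest in diabetic replicates 1 and 3. Both control signals of Sod3 lay below the pseudocount of 120.6, so their near equality cannot show whether Sod3 follows melanocyte signal. The melanocyte sums of control replicates 1 and 2 were 5166 and 19128. The melanocyte and corneal marker values are given with Gpx3, and their part in the Sod3 values was not tested.

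**Figure D3:**
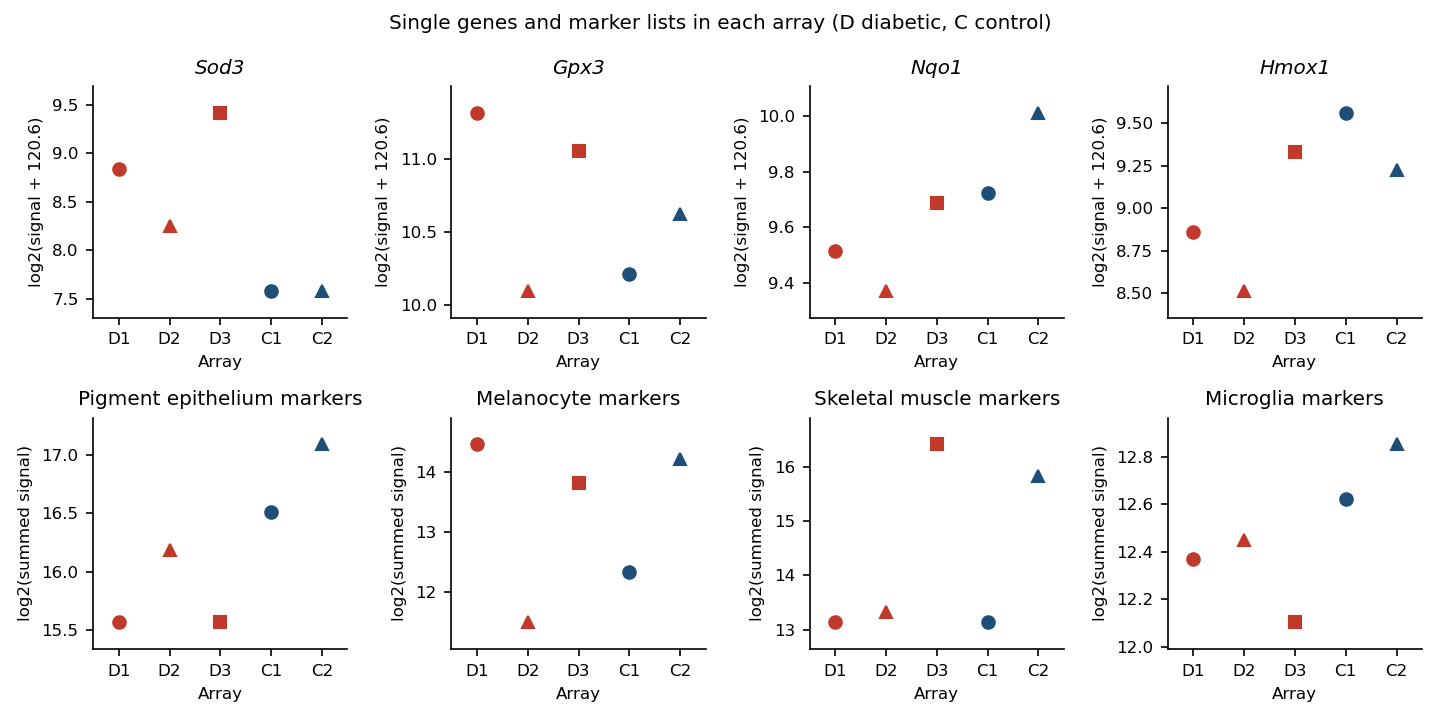
Values in each array of Sod3, Gpx3, Nqo1 and Hmox1 (upper row, log2(signal + 120.6)) and of summed marker signals (lower row, log2 scale), with diabetic pools D1 to D3 in red and control pools C1 and C2 in blue. Sod3 is above both controls in each diabetic pool and Nqo1 below them. Gpx3 has its 3 highest values in D1, D3 and C2 as the melanocyte markers do. The summed signals of the pigment epithelium and microglia markers are lower in all 3 diabetic pools.

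Probe sets of the same gene did not always share a sign. Of 16 genes with more than 1 tested probe set, 6 had differences of opposite sign (Gclc, Gclm, Gpx4, Gss, Sod1 and Sod2). Those of Gclm (-0.000391 and 0.04) and Gpx4 (-0.027 and 0.022) were each smaller than their SE, so these signs do not show that the probe sets disagree. Of the 51 tested probe sets of these genes 32 were higher and 19 lower, beside 10225 higher and 10742 lower of all 20967 tested probe sets. The groups did not overlap in 7 of the 51 and none passed an adjusted p of 0.05 (limma), beside 17.2% and 0% of all 20967 tested probe sets. Differences beyond that of Gpx3 (0.41) in either direction occurred only at probe sets below 9.70, the lowest mean level of a tested gene. For Txnrd2 the dim probe sets differed by 0.49 and 0.54, and the brighter ones by -0.09 and -0.12. The dim probe set at 0.49 was at 8.19, 7.75 and 8.11 in diabetic and 7.51 and 7.55 in control pools. For Gstm1 the dim probe sets differed by 0.90 and 0.58. For Txnrd1 they differed by -0.66 and -0.25, the first resting on control replicate 1 at 9.19 against 7.62 to 8.22 in the other arrays.

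**Figure D4:**
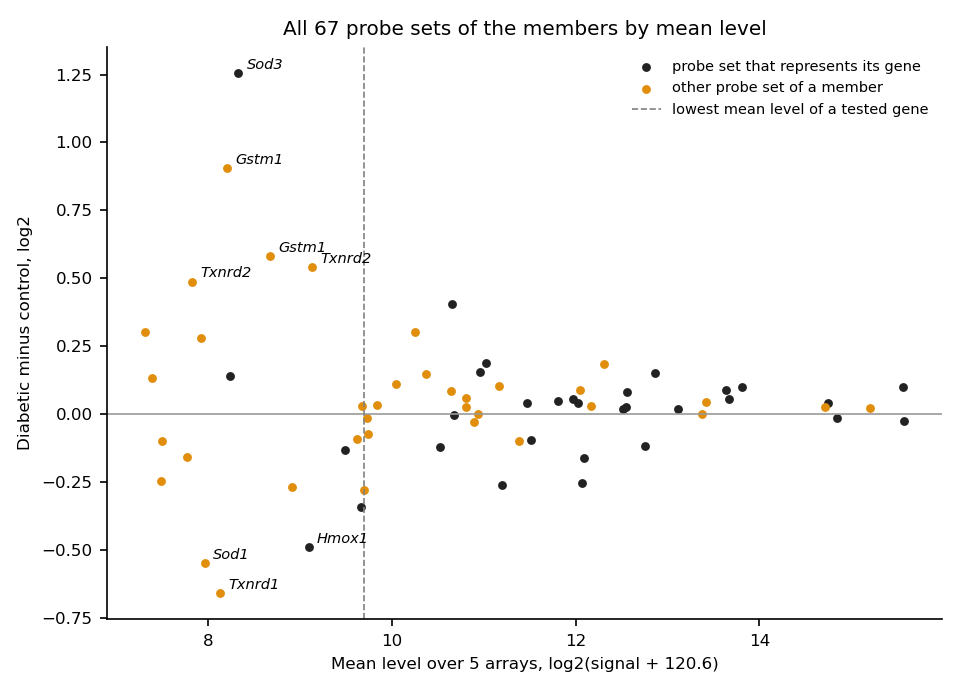
Difference between diabetic and control pools (vertical axis, log2) of the 67 probe sets of these genes against their mean level (horizontal axis, log2(signal + 120.6)), with the probe set that stands for its gene in black and the others in orange. Probe sets above the dashed line at 9.70 lie between -0.26 and 0.41, and those with differences beyond 0.41 in either direction lie to its left.

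Neighbouring genes of the same pathway, 103 in 7 lists, were counted in the same way. Of 65 tested, 42 were higher and 23 lower, where 51.9% of all tested genes were higher. The median difference of the 65 was 0.02, and 0 passed an adjusted p of 0.05. The groups did not overlap in 10, or 15.4%, beside 18.1% of all tested genes, and 3 of the 65 had an unadjusted p under 0.05, namely Nfe2l1, Cul3 and Cbr3, beside 3.39% of all tested genes (limma). Nfe2l1, which encodes the Nrf2 relative Nrf1, was at 12.75, 12.86 and 12.77 in diabetic and 13.05 and 13.14 in control pools. It differed by -0.30 (SE 0.09; limma, unadjusted p = 0.00856 and adjusted p = 0.999). Cul3, the scaffold of the ubiquitin ligase that Keap1 recruits, was at 14.35, 14.52 and 14.39 in diabetic and 14.55 and 14.67 in control pools, a difference of -0.19 (SE 0.08). Of 7 tested regulators of the Nrf2 group, 4 were lower and 3 higher.

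Cbr3, a carbonyl reductase among the detoxifying Nrf2 targets, had the largest difference of the 65, 0.67 (SE 0.26; limma, adjusted p = 0.999). It was at 10.62, 10.53 and 10.28 in diabetic and 10.24 and 9.38 in control pools. Control replicate 2 stood low, and without it the difference was 0.24. In the same list Blvra, the biliverdin reductase that acts after heme oxygenase, was at 11.87, 11.76 and 11.80 in diabetic and 11.56 and 11.63 in control pools, a difference of 0.22 (SE 0.11). Of the 9 tested genes in that list 6 were higher, beside 51.9% of all tested genes.

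Of the 10 tested genes that supply NADPH, 8 were higher, with a median of 0.04, where 51.9% of all tested genes were higher. With each array centred on its median signal that share of all tested genes was 65.8%, so it moves with the normalization. Each count of higher genes below stands beside the same shares. In the NADPH list Pgd, of the pentose phosphate pathway, was at 0.23 (SE 0.15) and Idh1, cytosolic isocitrate dehydrogenase, at 0.12 (SE 0.11). Of 10 other glutathione transferases 7 were higher (median 0.04), with Gsto1 at 0.23 (SE 0.18) and Mgst3 at 0.12 (SE 0.13). Of 10 genes of glutathione turnover and export 6 were higher (median 0.02). Their member Oplah, which recycles 5-oxoproline, differed by 0.20 (SE 0.12) and Abcc4, an export pump, by -0.23 (SE 0.19). Of 18 other thiol and repair enzymes 11 were higher (median 0.02), with Txndc12 at 0.17 (SE 0.09) and Glrx5 at 0.13 (SE 0.10). In the list of superoxide sources 7 genes were measured and none of the oxidases among them was tested. Its 1 tested gene, P4ha1, is a collagen prolyl hydroxylase and not a superoxide source, and was at 0.08 (SE 0.12). None of these genes passed the adjusted threshold.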

How the data were processed

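Retinal RNA of 5 pools was measured on Affymetrix mouse arrays, 3 diabetic and 2 control. The deposited values are signal intensities on a linear scale, 1 per probe set. Each array had a mean of 2500.0 after removing the lowest and highest 2% of its values. The software behind them is not given in the sources used here. Of 45101 probe sets, 64 were controls, 34945 had 1 gene symbol (34741 updated by Entrez ID), 932 several and 9160 none listed. Signals were taken as log2(signal + 120.6), the pseudocount being the 20th percentile of all values. For each gene the probe set with the highest mean over all arrays was kept, and the upper 60% of genes were tested with limma 3.58.1 in R 4.3.3 (lmFit, eBayes with a trend, 3 residual degrees of freedom), two-sided, with Benjamini-Hochberg adjustment over all tested genes. P-values compare pools, and the number of arrays limits the precision. Promoter sequences are from RefSeq, GRCm38.p6. The steps were tested on simulated data. Plots were made with matplotlib 3.10.9. The 35 genes and all lists were chosen with earlier results of these data known. Genes given array by array were those whose groups did not overlap, those with the 6 smallest p, those with probe sets of opposite sign and at least 1 per enzyme system. In other lists they were the 2 of smallest p. Marker genes served only as checks of tissue, and Krt12 was singled out after its values were seen. Alternatives covered normalization, pseudocount, filter, probe set choice, variance model, array weights, replicate and muscle blocks, and arrays left out.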

Additional observations from a re-analysis of the deposited data

Results flagged for a closer look

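Values outside the comparison of tested genes that lay above both control arrays were the following. The Sod3 probe set below the filter was higher in every diabetic pool, by 1.26 in the mean. A dim Txnrd2 probe set, also below the filter, was higher in every diabetic pool, by 0.49. Values below both controls were not flagged, such as Nqo1 (-0.34) and a dim Sod2 probe set (-0.27). Over all 18193 genes, the groups of 18.5% did not overlap. In diabetic replicate 2 the beta-actin control probe sets gave a 3'/5' ratio of 4.32, against 2.52 and 2.71 in the controls. Those of Gapdh gave 0.90, against 0.82 and 0.81 in the controls.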

How the results depend on the processing

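None of the 26 tested genes passed under any alternative, single arrays left out included. With alternatives other than single arrays left out, they kept their sign in 290 of 305 values. That count includes the fits with no filter, with the upper 40% of genes and with no trend in the variance. Their differences equal those of the main fit by construction, so no sign could change there. Prdx4 was at 0.024 with quantile normalization, 0.013 with array weights and 0.000506 with the muscle split as a block. Centred on array medians, Gpx4 was at 0.016, Prdx4 at 0.037 and Sod1 at 0.026, and the median of the 26 was 0.082. As means of probe sets, Nfe2l2 was at -0.056, Sod2 at -0.031, Txnrd2 at 0.20 and Txnrd1, which then lay below the filter, at -0.29. Without both arrays of high muscle signal (diabetic replicate 3 and control replicate 2), Gclm was at -0.11, Glrx at -0.00343, Prdx4 at 0.044 and Sod1 at 0.050, while 2 genes in all passed the threshold and the groups of 19 of the 26 (73.1%) did not overlap, beside 57.7% of all tested genes. In the upper 40% of genes, 2 of 20 (10%) did not overlap, beside 17.4% of all tested genes. With the replicate number as a block, which leaves diabetic replicate 3 without a partner, Gclm was at -0.012 and Gsta4 at -0.024. These differences equal those with diabetic replicate 3 left out, since the block gives that array its own term. The 305 values above include this fit. It has fewer residual degrees of freedom than the main one. In it 2 genes and 7 probe sets in all passed the threshold, with 0 of the 26 among the genes. The deviations of same-numbered pools correlated at 0.13 and -0.14 across genes, and those of diabetic replicate 3 and control replicate 2 at 0.27. With 2 controls the deviations of 1 mirror those of the other, so these values cannot decide whether the replicate numbers pair the pools. The cause of the changes between settings was not tested.

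With single arrays left out, 0 to 1 genes and 0 to 3 probe sets in all passed, 0 of the 26 passed, 6 to 15 of the 26 did not overlap (15, or 57.7%, without control replicate 2, beside 42.0% of all tested genes; over the 5 fits all tested genes gave 31.4% to 44.8%), and their median ran from 0.00637 to 0.059. Ranges that crossed 0 were -0.12 to 0.073 for Sod1, -0.21 to 0.016 for Gsr, -0.034 to 0.14 for Keap1, -0.086 to 0.072 for Prdx4, -0.019 to 0.13 for Txn1, -0.017 to 0.072 for Txn2, -0.061 to 0.14 for Gclm, -0.062 to 0.10 for Gsta4, -0.023 to 0.061 for Gpx1, -0.061 to 0.00747 for Gpx4, -0.24 to 0.55 for Hmox2, -0.048 to 0.14 for Nfe2l2, -0.60 to 0.35 for Txnrd2, -0.041 to 0.35 for Glrx and -0.00751 to 0.16 for P4ha1. Fewer arrays make groups that do not overlap more frequent by construction. With 5 arrays and 3 residual degrees of freedom, differences of the size seen in most of these genes lie within the intervals, and signals near the pseudocount have no reliable order.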
